A study of Homo sapiens with 6 samples.

Results

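The RecQ helicases BLM, WRN, RECQL and RECQL5, the BLM partners TOP3A, RMI1 and RMI2, and the junction resolvases GEN1, MUS81 and EME1 were examined in leukemia cells with inducible ERG. The 10 genes were chosen by name, and every probe set annotated to exactly 1 of these symbols was taken, which gave 21 of 54613 probe sets and 10 of 19775 genes, all of them measured and none filtered out. K562 cells are an established human line of erythroid character from a chronic myeloid leukemia. Its stably transfected pTRE-ERG clones CL4, CL9 and CL46 carry an ERG construct that responds to doxycycline (DOX), and each was grown with 1 µg/ml DOX, for which the labels give 8 days and a figure legend of the study gives a shorter time, or left unstimulated. Each clone gave 1 Affymetrix U133-plus array per condition, so that 3 ERG-induced arrays stood against 3 non-induced arrays from the same clones, and no condition of a clone was repeated. Every ERG-induced culture and no other received DOX, so that effects of ERG and of DOX cannot be told apart.

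RecQ helicases unwind branched DNA from the 3′ to the 5′ direction and act where replication forks stall and where broken DNA is repaired by homologous recombination. Recombination joins sister duplexes through Holliday junctions, four-way structures that must be removed before chromosomes separate. BLM, the topoisomerase TOP3A and the OB-fold proteins RMI1 and RMI2 form the complex that dissolves double junctions without crossovers, whereas GEN1 and the MUS81-EME1 heterodimer cut junctions. Loss of BLM causes Bloom syndrome, with many sister chromatid exchanges, and loss of WRN causes Werner syndrome.

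The deposited values are linear ratios to the median of a probe set over the 6 arrays, so a value of 1 is the middle of the 6 arrays and levels of different genes cannot be compared. Brightness is not part of the values, and it could therefore not be checked whether a gene, or a marker of K562 cells, was detected at all. ERG itself differed by -0.76 on the log2 scale between ERG-induced and non-induced arrays (SE 0.63, limma adjusted p = 0.671, 4 probe sets), or -1.35 (CL4), -0.80 (CL9) and -0.14 (CL46). Whether these probe sets lie inside the ERG sequence that was introduced is unknown. They are thus no check of the labels, from which the arrays take their names. The median ratio of an array lay between 0.898 and 0.998 in the ERG-induced arrays and between 0.990 and 1.07 in the non-induced arrays. Ribosomal RNA, read by control probe sets, was higher in the ERG-induced array of each clone, by 1.21, 0.59 and 0.82 on the log2 scale (two-sided exact permutation p = 0.1, which is the minimum for 3 arrays against 3). The 3′ minus 5′ contrast of the ACTB controls changed by 0.22 (SD 0.37, n = 3 clones) and that of GAPDH by 0.02 (SD 0.04). Their part in the results was not tested.

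Of the 10 genes, 5 were lower in the ERG-induced arrays of all clones with no overlap between the groups: GEN1, RMI1, WRN, RECQL and BLM. The other 5, RECQL5, TOP3A, EME1, RMI2 and MUS81, had groups that overlapped. The division ran through both machineries. Within the dissolution complex BLM and RMI1 were lower and TOP3A and RMI2 were not, and among the resolvases GEN1 was lower and MUS81 and EME1 were not. The study called a change at a 2-fold difference with p below 0.05, and limma's unadjusted p was used for this here. The same 5 genes passed them as lower and 0 passed as higher, where 6.32% of all genes were called lower and 3.12% higher. Arrays of the 2 groups did not overlap, with the ERG-induced arrays below, in 13.6% of all genes, and with the ERG-induced arrays above in 7.98%. Benjamini-Hochberg adjustment over all 19775 genes left 0 with an adjusted p under 0.05 in limma (lowest 0.101), while 2544 had an unadjusted p under 0.05. Because the genes were proposed with this contrast known, their counts and values are a description, and no p is given for them. In a bulk culture, fewer cells that express a gene and less RNA per cell cannot be told apart.

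**Figure D1:**
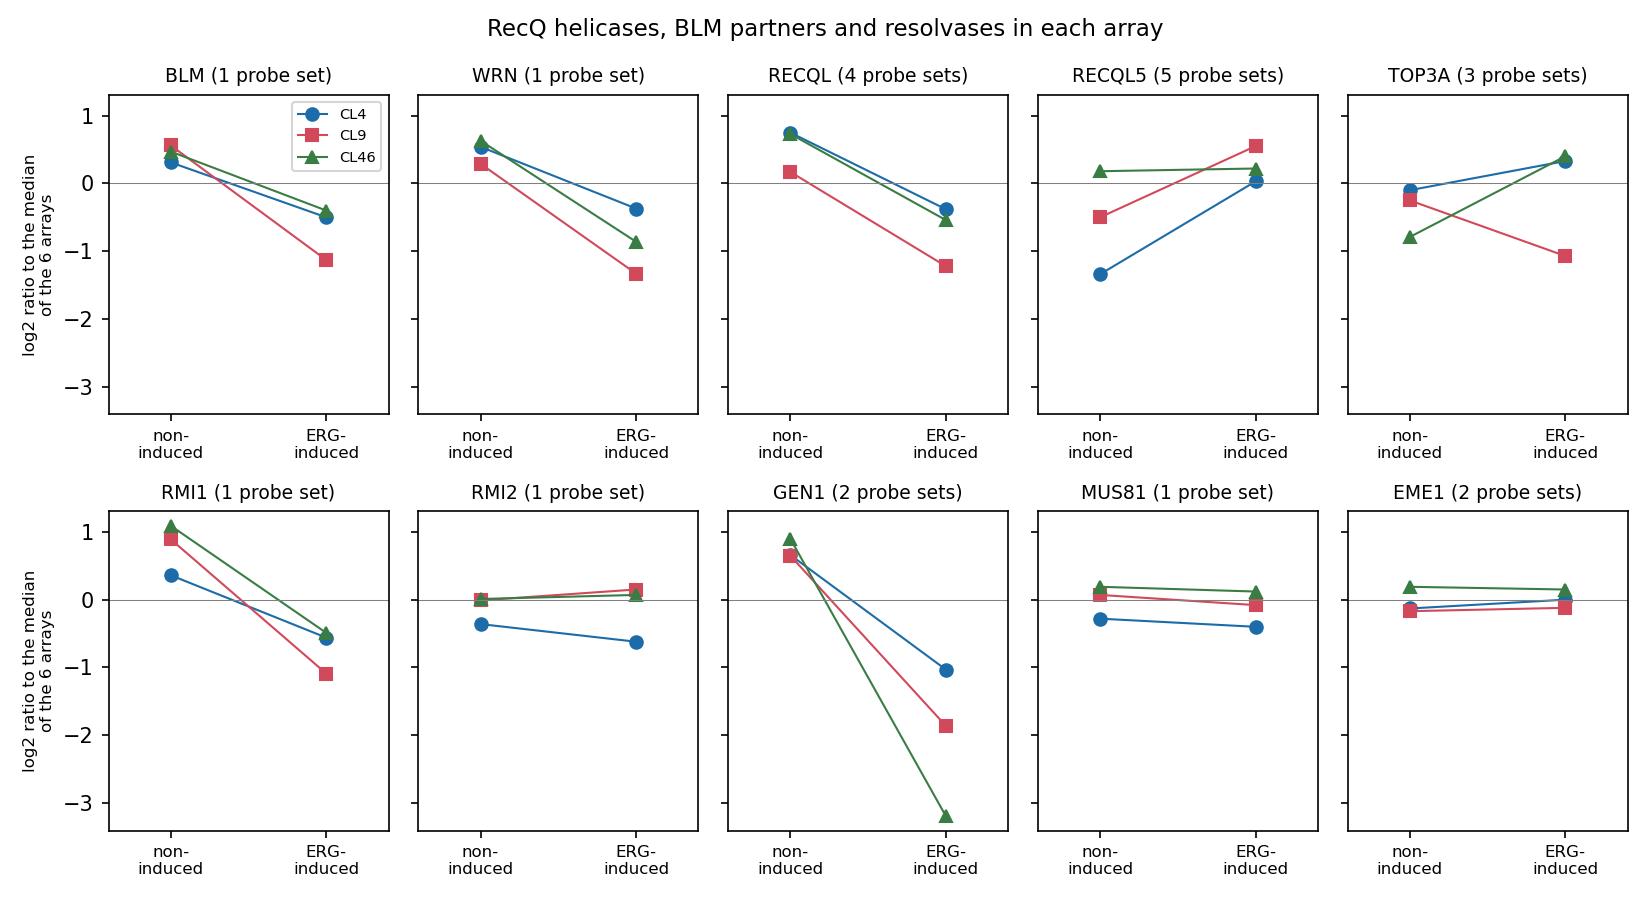
Log2 ratio to the median of the 6 arrays (y axis, mean over the probe sets of a gene) of the 10 genes in each array, with a line joining the non-induced and the ERG-induced array of a clone (CL4 circles, CL9 squares, CL46 triangles). BLM, WRN, RECQL, RMI1 and GEN1 run downward in all 3 clones, GEN1 in CL46 to -3.19, while RMI2, MUS81 and EME1 run nearly level and TOP3A and RECQL5 scatter.

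The median log2 difference of the 10 genes was -0.62, against -0.03 over all genes. By clone it was -0.54 (CL4), -1.11 (CL9) and -0.47 (CL46), where the medians of all genes were -0.04, -0.06 and -0.04. In each clone 7 of the 10 genes lay below 0, compared with 51.8%, 52.6% and 51.8% of all genes. The genes below 0 were not the same in each clone, and 6 genes (the 5 above and MUS81, whose mean was 0.00 after quantile normalization) were below 0 in every clone, as were 22.4% of all genes. Only RECQL and GEN1 were at -1 or lower in every clone, as were 2.53% of all genes. Ordered by their mean, GEN1 stood lowest of the 10 and had 0.420% of all genes at or below it. RMI1 followed with 4.97%, WRN with 6.80%, RECQL with 7.77% and BLM with 10.0%. These 4 lay between -1.50 and -1.12, and BLM stood above RMI1 in each clone, whereas the gap between BLM and WRN (0.22) was smaller than its spread over the clones (SD 0.37). RMI2 stood in the middle of all genes (50.7%), near MUS81 (45.0%) and EME1 (54.8%), and TOP3A (68.8%) and RECQL5 (87.6%) stood above it.

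**Figure D2:**
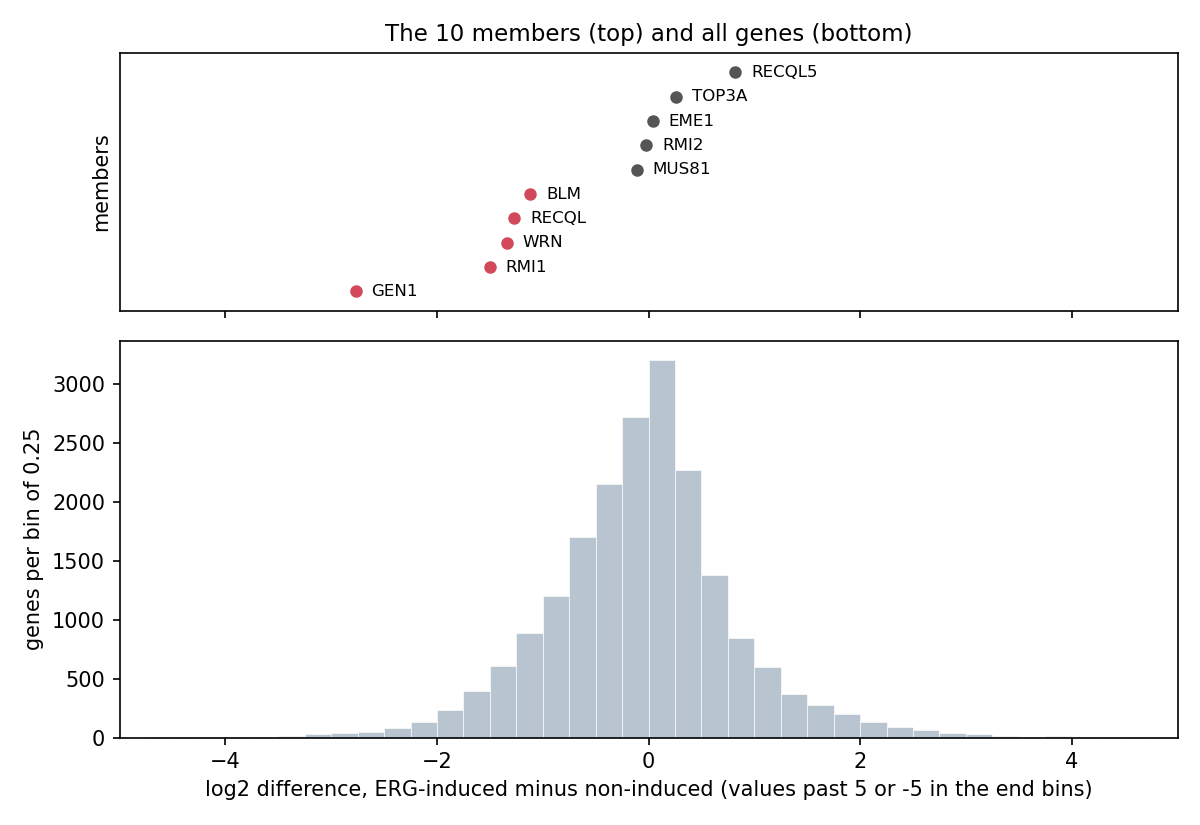
Mean log2 difference, ERG-induced minus non-induced, of the 10 genes (upper panel, red where past the study's thresholds, grey otherwise, ordered vertically by value) above the distribution of all 19775 genes in bins of 0.25 (lower panel). GEN1 lies at -2.77, BLM, RECQL, WRN and RMI1 lie between -1.50 and -1.12, and the other 5 genes lie between -0.11 and 0.82.

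Promoters of the genes are shown because ERG is an ETS factor, and ETS factors recognize a GGAA core, in its extended form CCGGAAG. Windows of 250 bases before a transcription start (RefSeq, GRCh38.p14) were held for 8 of the 10 genes, in 10 windows. For WRN, which was lower, and for RMI2 there was no window. Below are those of 3 genes that were lower and of EME1, which was not, each lying wholly before the annotated gene. Letters are given 5′ to 3′ on the strand of the gene, and capitals mark CCGGAAG or its reverse complement CTTCCGG.
BLM, chr15:90717096-90717345, plus strand: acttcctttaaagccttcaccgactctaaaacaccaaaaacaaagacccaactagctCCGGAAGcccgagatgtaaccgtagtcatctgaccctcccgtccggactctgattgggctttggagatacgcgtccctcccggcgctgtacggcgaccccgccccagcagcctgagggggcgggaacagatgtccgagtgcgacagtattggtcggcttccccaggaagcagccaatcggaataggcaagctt
RECQL, chr12:21501636-21501885, minus strand: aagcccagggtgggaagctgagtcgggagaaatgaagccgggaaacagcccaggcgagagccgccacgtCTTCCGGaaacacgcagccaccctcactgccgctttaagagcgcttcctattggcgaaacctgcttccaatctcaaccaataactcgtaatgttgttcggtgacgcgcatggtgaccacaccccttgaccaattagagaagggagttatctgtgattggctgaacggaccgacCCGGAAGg
RMI1, chr9:83980109-83980358, plus strand: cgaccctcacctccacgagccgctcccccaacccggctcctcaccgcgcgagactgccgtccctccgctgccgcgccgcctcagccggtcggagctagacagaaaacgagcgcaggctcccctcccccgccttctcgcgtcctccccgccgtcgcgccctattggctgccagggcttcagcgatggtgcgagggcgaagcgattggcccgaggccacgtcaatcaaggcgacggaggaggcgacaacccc
EME1, chr17:50372979-50373228, plus strand: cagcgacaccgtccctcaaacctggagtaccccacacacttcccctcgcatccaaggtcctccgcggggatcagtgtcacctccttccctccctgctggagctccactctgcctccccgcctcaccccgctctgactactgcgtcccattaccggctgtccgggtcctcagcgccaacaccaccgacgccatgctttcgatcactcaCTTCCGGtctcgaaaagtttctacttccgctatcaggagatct
The match in BLM began 193 bases before the start, those in RECQL 181 and 8 bases before it, and that in EME1 43 bases before it. Counted on both strands, CCGGAAG was in 5 of the 10 windows, which belong to 5 of the 8 genes (BLM, RECQL, RECQL5, GEN1 and EME1). Over all 35116 windows the share was 8.52%. The shorter GGAA, which every CCGGAAG contains, was in 9 of the 10 windows and in 92.7% of all, and the exception was the RMI1 window above. The GEN1 window with the motif precedes a start that lies inside the annotated gene. The longer motif was thus in windows of genes that were lower (BLM, RECQL, GEN1) and of genes that were not (RECQL5, EME1), and RMI1 was lower without it in either of its windows. GC content ran from 56.0% to 73.2% in the 10 windows, with a median of 58.0% over all windows. A match is a run of letters and no evidence of binding.

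BLM, the helicase of Bloom syndrome and the motor of the dissolution complex, is represented by 1 probe set (205733_at). Its ratio was 0.705, 0.456 and 0.759 in the ERG-induced arrays of CL4, CL9 and CL46 and 1.24, 1.48 and 1.38 in the non-induced arrays. All ERG-induced arrays thus lay below all non-induced arrays, with CL9 lowest. The clones differed by -0.81 (CL4), -1.69 (CL9) and -0.87 (CL46) on the log2 scale, on average -1.12 (SD 0.49, n = 3 clones) or 2.18-fold lower. Without CL9 the mean was -0.84, and after quantile normalization it was -0.94, and in both cases BLM no longer passed the thresholds. In the fit over probe sets, which has another estimate of the spread, it also missed them without CL4 (-1.28) or CL46 (-1.25).

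WRN, which adds a 3′ to 5′ exonuclease to its helicase, is also represented by 1 probe set (205667_at). Its ratio was 0.775, 0.399 and 0.550 in the ERG-induced arrays of CL4, CL9 and CL46, against 1.46, 1.23 and 1.55 in the non-induced arrays. The groups were separate, and the smallest step was in CL4 (log2 difference -0.91), beside -1.62 in CL9 and -1.49 in CL46. The mean was -1.34 (SD 0.38), 2.53-fold lower. WRN no longer passed without CL46, at -1.27, which was nearly the same size.

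RECQL, the RecQ helicase often called RECQ1, is measured by 4 probe sets, and in each of them the ERG-induced arrays lay below the non-induced arrays. Its most separated probe set (212918_at) had ratios of 0.730, 0.331 and 0.536 in the ERG-induced arrays of CL4, CL9 and CL46 and of 1.52, 1.27 and 1.68 in the non-induced arrays. The mean log2 differences of the 4 probe sets ran from -1.55 to -0.82, and the smallest, that of 210568_s_at, was short of a fold of 2. Averaged over them, RECQL stood at -1.13 (CL4), -1.39 (CL9) and -1.27 (CL46), with a mean of -1.27 (SD 0.13) or 2.40-fold lower. This spread was the smallest among the 5 lower genes, but it is that of a mean over 4 probe sets. Their own SDs ran from 0.04 to 0.45, and BLM, WRN and RMI1 have 1 probe set each. Without CL46 RECQL missed the thresholds at -1.26. Of the 4 probe sets, 205091_x_at, 210568_s_at and 212917_x_at carry suffixes for probes that may match other transcripts, and the other, 212918_at, does not.

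RECQL5, a RecQ helicase that binds RNA polymerase II, did not follow the other RecQ genes, and its 5 probe sets disagreed. Probe set 211468_s_at had ratios of 0.885, 3.67 and 2.54 in the ERG-induced arrays of CL4, CL9 and CL46 and of 0.460, 1.11 and 0.584 in the non-induced arrays. It was higher within every clone (log2 differences 0.94, 1.72 and 2.12, mean 1.60, SD 0.60), while the ERG-induced array of CL4 lay below the non-induced array of CL9, so the groups overlapped. It passed as higher with the clone as a block, with each array centred, after quantile normalization and without CL4. Probe sets 34063_at (1.97, 1.76 and -0.53) and 1561720_at (4.0, 1.11 and -0.43) were higher in CL4 and CL9 and lower in CL46, and 34063_at passed as higher without CL46. The value of 1561720_at in CL4 came from a non-induced ratio of 0.0424, far below its other 5 arrays. Probe sets 210309_at and 221686_s_at had means of 0.12 (SD 0.51) and -0.25 (SD 0.32). The gene mean was 0.82 (SD 0.69), and the median over its probe sets gave 0.48. The RecQ gene outside the 10, RECQL4, differed by 0.00 and was named after its value was seen.

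**Figure D3:**
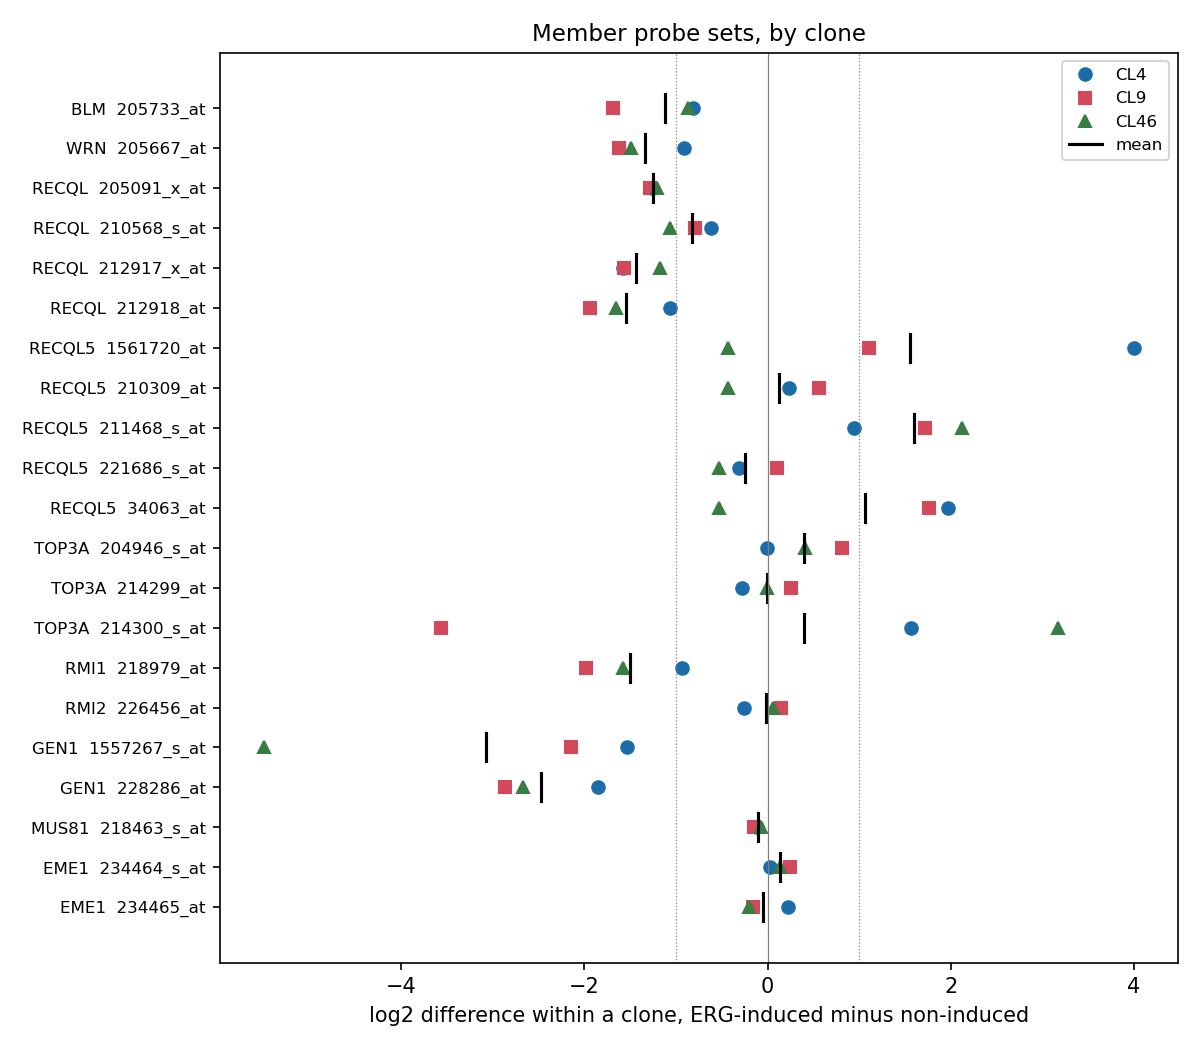
Log2 difference within a clone, ERG-induced minus non-induced (x axis), of the 21 probe sets of the 10 genes, with CL4 as circles, CL9 as squares and CL46 as triangles, the mean of the 3 clones as a black line, and dotted lines at a fold of 2. The 4 RECQL and both GEN1 probe sets lie wholly to the left of 0, whereas those of RECQL5 lie on both sides and 214300_s_at of TOP3A runs from -3.56 to 3.17.

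TOP3A, the topoisomerase that passes strands during dissolution, had groups that overlapped in all 3 of its probe sets. Probe set 204946_s_at had ratios of 0.797, 1.28 and 1.59 in the ERG-induced arrays of CL4, CL9 and CL46 and of 0.803, 0.729 and 1.20 in the non-induced arrays. Its mean log2 difference was 0.40 (SD 0.41), and that of 214299_at was -0.01 (SD 0.27). The other probe set, 214300_s_at, swung between the clones, at 1.57, -3.56 and 3.17, and carried the scatter of the gene mean (0.26, SD 1.02).

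RMI1, which stabilizes TOP3A on its substrate, was lower in every clone (218979_at). Its ratio was 0.676, 0.470 and 0.712 in the ERG-induced arrays of CL4, CL9 and CL46 and 1.29, 1.85 and 2.13 in the non-induced arrays. Every ERG-induced array lay below 1 and every non-induced array above it. The log2 differences of -0.93, -1.98 and -1.58 had a mean of -1.50 (SD 0.53), 2.82-fold lower, and in the fit over genes RMI1 passed the thresholds without any 1 of the clones (-1.78 without CL4, -1.26 without CL9 and -1.45 without CL46). In the fit over probe sets the same values missed them without CL9. RMI2, its direct partner in the complex, had ratios of 0.650, 1.11 and 1.05 in the ERG-induced arrays and 0.780, 0.995 and 1.01 in the non-induced arrays (226456_at). CL4 was low in both conditions, and the difference was -0.26, 0.15 and 0.06, a mean of -0.02 (SD 0.22). The gap between RMI1 and RMI2 in their log2 differences was -0.67, -2.14 and -1.64 in the clones, so that it had the same direction in all 3 clones. BLM and RMI1 differed from each other by 0.11, 0.29 and 0.72.

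GEN1, a monomeric nuclease of the XPG family that cuts Holliday junctions symmetrically as a dimer, was the lowest of the 10 genes in every clone. Probe set 228286_at had ratios of 0.466, 0.209 and 0.295 in the ERG-induced arrays of CL4, CL9 and CL46 and of 1.67, 1.53 and 1.88 in the non-induced arrays, and 1557267_s_at had 0.512, 0.363 and 0.0405 against 1.49, 1.62 and 1.84. In both probe sets the groups were far apart, and the probe sets differed most in CL46, where 1557267_s_at differed by -5.50 and 228286_at by -2.67. The gene mean was -1.69, -2.51 and -4.09 in the clones, with an average of -2.77 (SD 1.22) or 6.80-fold lower. The probe set without the extreme array gave -2.47 (SD 0.54), and without CL46 the gene gave -2.10. In the fit over genes GEN1 passed the thresholds without any 1 of the clones. In the fit over probe sets 228286_at did so too, while 1557267_s_at missed them without CL9 (-3.52).

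MUS81, the catalytic subunit of the other junction nuclease, was nearly level. Its ratio was 0.759, 0.948 and 1.09 in the ERG-induced arrays of CL4, CL9 and CL46 and 0.825, 1.05 and 1.14 in the non-induced arrays (218463_s_at). The clones differed from each other more than the conditions did, and the log2 differences of -0.12, -0.15 and -0.07 had a mean of -0.11 (SD 0.04). The mean was -0.01 once each array was centred and 0.00 after quantile normalization. EME1, its non-catalytic partner, had 2 probe sets with mean differences of 0.14 (SD 0.11) and -0.05 (SD 0.24). Probe set 234464_s_at had ratios of 0.918, 1.13 and 1.15 in the ERG-induced arrays and 0.900, 0.952 and 1.05 in the non-induced arrays, with overlap. The gap between GEN1 and MUS81 in their log2 differences was -1.57 (CL4), -2.36 (CL9) and -4.02 (CL46), and that between GEN1 and EME1 was -1.82, -2.56 and -4.05. These gaps are described and not tested, since the genes were proposed with this contrast known.

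Over the 21 probe sets, 8 passed the thresholds as lower and 0 as higher, where 8.16% of all 54613 probe sets passed as lower and 2.82% as higher. The ERG-induced arrays lay below all non-induced arrays in 9 of the 21, the additional probe set being 210568_s_at of RECQL, where 15.1% of all probe sets did so. The 9 probe sets are every probe set of the 5 lower genes, and the 12 probe sets that overlapped are every probe set of the others. Probe sets of 1 gene share their transcripts and are no replicates of each other.

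The genes differ in the length of DNA they span in GRCh38.p14. The lower genes span 23716 bases (RMI1), 32726 (RECQL), 35669 (GEN1), 98821 (BLM) and 142329 (WRN). RMI2 (6302), MUS81 (7980) and EME1 (8255) are shorter than each of these, and RECQL5 (40301) and TOP3A (43567) lie among them. This split was made after the values were seen and was not tested for the 10 genes.

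Genes that work beside the 10 were counted in lists drawn up with earlier results of these data known. For comparison, 6.32% of all genes were called lower and 3.12% higher, and the median of all genes was -0.03. Of 10 other junction and flap nucleases measured, 1 was lower and 0 higher at the thresholds, and their median was -0.73 on the log2 scale. The lower gene was DNA2, a nuclease and helicase of end resection (log2 difference -1.16, SE 0.28, limma adjusted p = 0.233, and not called without CL9, at -0.98, or after quantile normalization, at -0.99). EME2, the alternative partner of MUS81, differed by -0.95 (adjusted p = 0.414), EXO1, a resection exonuclease, by -0.76 (adjusted p = 0.410), and NBN, of the complex that binds broken ends, by -0.70 (adjusted p = 0.330). None of these 3 was called in the main fit, and EXO1 was called lower without CL4 (-1.11). ERCC4, named after its value was seen, was called lower without CL46 (-1.46).
Of 14 other repair helicases and translocases, 6 were lower and 0 higher, with a median of -0.70. SHPRH and HLTF, ubiquitin ligases with a translocase domain that modify PCNA at stalled forks, were 3.28-fold (adjusted p = 0.192) and 2.16-fold lower (adjusted p = 0.211). BRIP1, the helicase that binds BRCA1, was 4.61-fold lower (-2.20 on the log2 scale, SE 0.58, adjusted p = 0.252), and FANCM, a translocase that remodels forks and binds the BLM complex, 2.92-fold lower (adjusted p = 0.270). HELQ and RAD54B also passed and are named after their values were seen. BRIP1 did not pass without CL46 (-2.31), and HELQ, RAD54B and FANCM did not pass without CL9 (-0.99, -0.93 and -1.32) or CL46 (-1.35, -0.88 and -1.18), so that 3 of the 14 were called without CL9 and 2 without CL46. RAD54B also missed the thresholds with the clone as a block. Once the arrays were quantile normalized, 4 of the 14 were called, without HLTF (-0.91) and RAD54B (-0.96), and FANCM (-0.69) and HELQ (-0.80) missed the thresholds without probe sets with cross-matching suffixes.

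**Figure D4:**
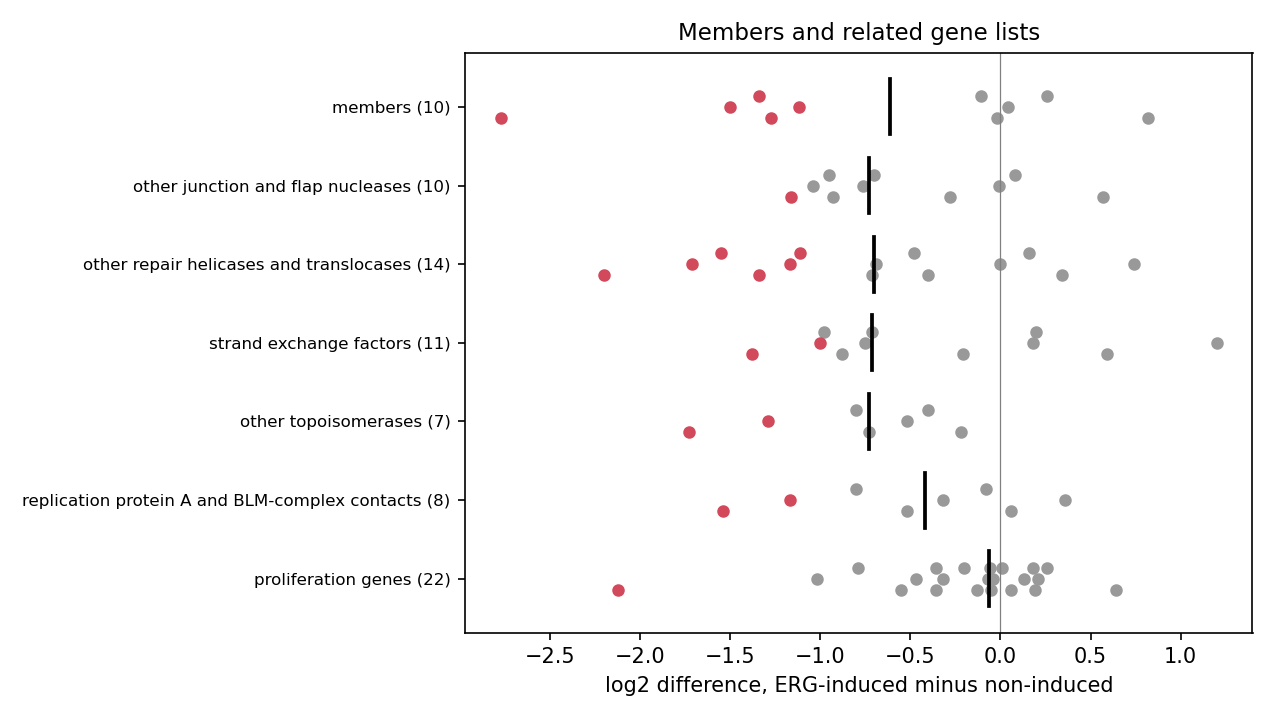
Log2 difference, ERG-induced minus non-induced, of each gene (point) of the 10 genes described (top row, members) and of 6 related lists, with the number of genes in brackets and the median as a black line. Red points passed the study's thresholds as lower, grey points did not pass, and 0 genes of these lists passed as higher; the median lies at -0.73 for the other nucleases and at -0.06 for proliferation genes.

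Of 11 strand exchange factors, 2 were lower and 0 higher (median -0.71, and -0.16 without CL46). RAD51AP1, a DNA-binding factor of homologous recombination, was 2.61-fold lower (adjusted p = 0.209), and PALB2, which carries BRCA2 to breaks, 2.0-fold (adjusted p = 0.265). PALB2 was at the edge of the fold threshold and missed it without CL9 (-0.82) or CL46 (-0.94) and with each array centred (-0.90) or quantile normalized (-0.85). RAD51C (-0.88, adjusted p = 0.272) and XRCC2 (-0.98, adjusted p = 0.306) were not called in the main fit. RAD51C was called lower without CL4 (-1.03) and XRCC2 without CL46 (-1.23). Of 7 other topoisomerases and tyrosyl-DNA phosphodiesterases, 2 were lower and 0 higher (median -0.73), namely TOP2B, 2.45-fold lower (adjusted p = 0.192), and TOP2A, 3.33-fold (adjusted p = 0.343, and not called without CL46 at -1.90 or without suffixed probe sets at -1.79). TDP2 (-0.80, adjusted p = 0.333) and TOP1 (-0.73, adjusted p = 0.354) were not called. TOP1MT, named after its value was seen, was called lower without CL9 (-1.27). Of 8 genes for replication protein A and contacts of the BLM complex, 2 were lower and 0 higher (median -0.42). TOPBP1, a scaffold that activates ATR and binds BLM, was 2.91-fold lower (adjusted p = 0.192), and MLH3, a subunit of a mismatch repair nuclease, 2.24-fold (adjusted p = 0.338), without a call when CL9 (-1.29) or CL46 (-0.79) was left out or after quantile normalization (-0.98). All probe sets of MLH3 carry a cross-matching suffix. SPIDR (-0.80, adjusted p = 0.470) and CDK1 (-0.52, adjusted p = 0.426) were not called.
Of 22 proliferation genes, 1 was lower and 0 higher, and the median was -0.06, which turned to 0.04 with each array centred and to 0.06 after quantile normalization. It fell to -0.26 without CL4 and to -0.13 without suffixed probe sets. The lower gene was MKI67, which coats mitotic chromosomes, at 4.33-fold (log2 difference -2.12, SE 0.45, adjusted p = 0.209). All its probe sets carry a cross-matching suffix, so that 0 of these genes were called without such probe sets. CCNE2 (-0.79, adjusted p = 0.432), CCNB1 (-0.55, adjusted p = 0.441) and RRM2 (-0.47, adjusted p = 0.534) were not called in the main fit. Without CL4, CCNE2 was called lower (-1.18). BUB1, named after its value was seen, was called lower with the filter at a ratio of 0.1 (-1.11).

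Markers of other blood and stroma cells moved in part with the groups. Their counts, too, stand beside 6.32% of all genes called lower and 3.12% called higher. Of 10 megakaryocyte genes, 3 were higher and 0 lower (SELP, GP1BA and ITGB3, the last not called without CL9 at 1.12 or CL46 at 1.33 or without suffixed probe sets at 0.50), with a median of 1.13, and their mean log2 ratio ran from -0.35 to 1.12 in the ERG-induced arrays and from -1.09 to -0.59 in the non-induced arrays. Of 8 erythroid genes, 1 was lower (TFRC, the transferrin receptor, log2 difference -1.67, adjusted p = 0.192) and 0 higher, with a median of 0.05 and mean log2 ratios of -0.37 to -0.03 and of -0.02 to 0.13. Of 9 monocyte and granulocyte genes 0 were called in limma in either direction (median 0.04, mean log2 ratios -0.17 to 0.71 and -0.42 to 0.13). With the clone as a block S100A9 was called higher (2.15), as it was without CL9 (2.86), and CD14 was called higher without CL4 (3.94). Of 9 fibroblast and stroma genes, 2 were higher (FAP and PDGFRA) and 1 lower (COL1A1). FAP has 1 probe set, and it carries a cross-matching suffix. PDGFRA was not called without CL4 (1.37). COL1A1 was not called without CL4 (-0.85) or CL9 (-1.11), with each array centred (-0.99) or after quantile normalization (-0.95). The median of the 9 was 0.50, but -0.05 without CL46 and -0.10 without suffixed probe sets, with mean log2 ratios of -0.24 to 0.20 and of -0.60 to -0.52. Of 6 lymphocyte genes, 1 was lower (CD3D, not called without CL9 at -1.08 or CL46 at -1.21, with each array centred at -1.13 or after quantile normalization at -1.01) and 0 higher, with a median of -0.05 and mean log2 ratios of -1.06 to 0.55 and of -0.43 to 0.28. In ratios no marker can stand at 0. Whether these cell type genes bear on the 10 genes was not tested.

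Many other genes ran alongside the 6 genes that were below 0 in every clone. Over the 6 arrays, the mean log2 ratio of these 6 had its highest Pearson correlations with PHIP (r = 0.9994), TRMT6 (0.9985), UPF2 (0.9983), STT3B (0.9978) and FBXW7 (0.9969), and 573 genes had an r above 0.95. In all 19775 genes were measured, and in 13.6% of them the ERG-induced arrays lay below all non-induced arrays. The 6 genes were picked for being below 0 in every clone, so high correlations with other lowered genes are built in. All of these points share the same 6 arrays, so the correlations are a description. PHIP differed by -1.25 on the log2 scale, TRMT6 by -1.39, UPF2 by -1.88, STT3B by -0.77 and FBXW7 by -0.73.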

How the data were processed

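The authors hybridized RNA of the 6 cultures to Affymetrix U133-plus arrays and used GeneSpring. What they deposited is a linear ratio for each probe set in each array. The median of a probe set over the 6 arrays was 1 (tolerance 1e-05) in 50737 of 54675 probe sets. No background correction or array scaling before that division is stated in the labels or methods, and such a division hides brightness. Groups and clones came from the sample labels. Columns of no mapped sample numbered 0. The 62 control probe sets served as RNA controls and entered no test across genes. Gene symbols came from the platform annotation, and 41091 probe sets carried 1 symbol. Ratios, which ran from 0.00357 to 154, were turned to log2 with no floor or filter, averaged over the probe sets of a gene, and compared with limma 3.58.1 in R 4.3.3 (lmFit and eBayes, two-sided, Benjamini-Hochberg over all 19775 genes or all 54613 probe sets), a fit tested on simulated data. Precision is limited by having 3 arrays per group. SD is over the 3 within-clone differences, and SE is that of limma.

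The members and gene lists were chosen with earlier results of these data known. Named are the 10 genes, ERG, up to 4 genes with the smallest p of each list, and the 5 genes most like the members' mean, and others are marked. The clone pairs the arrays, since both arrays of a number are the same clone; after subtraction of the group means, the arrays of a clone correlated at 0.0362 (CL4), 0.0487 (CL9) and 0.0306 (CL46). The main fit has no term for the clone, so its p-values measure the spread between the clones within a condition. Only the fit with the clone as a block measures the spread of the within-clone differences. Alternatives were the clone as a block, centred arrays, quantile normalization, the median over probe sets, no probe sets with cross-matching suffixes, a floor at a ratio of 0.1, a filter at that ratio, other thresholds and leaving out each clone.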

Additional observations from a re-analysis of the deposited data

How the results depend on the processing

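With the clone as a replicate block, 5 of the 10 genes were lower and 1 of the 21 probe sets was higher (211468_s_at of RECQL5), against 0 without the block; among the 10 genes and the called genes of the lists the block ended only the call of RAD54B, and it added S100A9 and MS4A1 in the marker lists. With the block, 1264 of all 19775 genes passed as lower and 661 as higher, and 6144 of all 54613 probe sets passed in either direction. The lowest adjusted p was then 0.350. After centring the arrays on their medians, and after quantile normalization, 1 probe set was likewise higher. By these the median of all genes moved by 0.10 and 0.13, and relative to it the median of the 10 genes was -0.59 and -0.58, against -0.59. They changed the share of lower calls over all genes from 67.0% (1250 lower, 617 higher) to 57.2% (999 and 749) and 52.1% (923 and 848). Without the cross-matching suffixes 9 genes were left, MUS81 having no other probe set. Of their probe sets 5 were lower, where 4427 of all probe sets left passed in either direction. The median of the 9 genes was -1.12, which is the unchanged value of BLM. The main median of -0.62 lies in the gap between BLM (-1.12) and MUS81 (-0.11), so its move follows from the absence of MUS81. Leaving out each clone in turn gave 3 to 5 genes lower, 4 to 5 probe sets lower and 0 to 1 higher, and the median of the 10 genes kept its sign. Over all 19775 genes, 1305 were lower without CL4, 1082 without CL9 and 1005 without CL46. Over all 54613 probe sets, 5966, 5337 and 4925 passed in either direction, in the same order. At an adjusted p under 0.05, 0 genes and 0 probe sets passed as analysed; 4 genes passed after quantile normalization (lowest adjusted p 0.0304) and 2 with the floor at a ratio of 0.1 (lowest 0.0181), and 0 of the 10 genes were among them in either case. Of 99 values of the 10 genes under these alternatives 8 were of another sign or at 0, all of them of RMI2, TOP3A, MUS81 or EME1. Many of the 99 could not differ from the main value, so this count is no measure of stability. The block leaves every mean as it is, and the median over probe sets does so for each gene with 1 probe set. The suffix, floor and ratio alternatives likewise left such genes unchanged or, for MUS81 without suffixes, unmeasured. The 5 lists with a median printed below -0.1 stayed below 0 in every alternative. That of proliferation genes turned to 0.04 and 0.06 with the scalings and fell to -0.26 without CL4. Causes were not tested. Signal over background is unknown and limits every value.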

Other observations

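Since RMI2, MUS81 and EME1 are shorter than each of the 5 lower genes, while RECQL5 and TOP3A are not, all genes with a known span in GRCh38.p14 (19738, or 99.8%) were split by it into 4 classes of equal size, after the values had been seen. The median log2 difference, ERG-induced minus non-induced, was 0.10 in the shortest class (up to 8852 bases), 0.01 in the next (up to 24734), -0.09 in the next (up to 65534) and -0.15 in the longest. The share of genes past the study's thresholds as lower was 3.34%, 4.01%, 7.82% and 10.1%, and the share past them as higher was 4.09%, 3.14%, 2.86% and 2.39%. RMI2, MUS81 and EME1 belong to the shortest class, RMI1 to the next, RECQL, GEN1, RECQL5 and TOP3A to the one after, and BLM and WRN to the longest. Genes share the 6 arrays and are not independent, so the shares are a description across genes.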
